A study of Mus musculus with 72 samples.

Results

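The mitosis genes are 42 genes whose products take a cell into, through and out of cell division. They were chosen by name for known function, with no threshold on a measured value but with earlier results of these data known, and were grouped by role: entry into mitosis, mitotic kinases, the spindle checkpoint, anaphase, the kinetochore, kinesins and the spindle, cytokinesis, and chromosome structure. Of these 42 genes, 41 were measured among 19938 genes represented by a probe set with a single gene symbol; Ccnb1 was not analysed here. Each value is a deposited log2 level, and each RA effect is limma's estimate of retinoic acid (RA) minus untreated arrays of the same leukaemia type and time, adjusted for the labelled batch. Where groups were spread unevenly over batches (transgenic PML/RARA at 6 h), it differs slightly from the plain difference of the group means. A difference of 1 on this scale is a doubling.

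Acute promyelocytic leukaemia (APL) is driven by a fusion of the retinoic acid receptor RARA, and the study profiled RNA of leukaemic mouse bone marrow on 72 arrays in 16 groups. In the transgenic model, PML/RARA leukaemias gave 4 untreated arrays and 8 RA arrays per time (6 h or 12 h), and PLZF/RARA leukaemias gave 2 untreated arrays and 4 RA arrays per time, all on a background labelled WT. The viral transduction model carried PML/RARA on a background labelled WT or pml-/- (here Pml wild type and Pml null), each with 4 untreated arrays beside 8 RA arrays at 6 h, and 2 beside 4 at 12 h. All samples were tumour-bearing marrow stored frozen; no source used here gives the mouse strain, age, RA dose or the promoter that drove each fusion. The labels do not say which arrays came from separate animals, so p-values speak only of the spread from array to array. In bulk marrow, fewer dividing cells and less RNA per dividing cell cannot be told apart.

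Array medians ran from 6.56 to 6.81, and no array was left out. Cyp26a1, an RA-degrading enzyme and direct RA target, rose in all 8 RA comparisons, with batch-adjusted effects of 3.36 to 5.76 log2, so the treatment labels were borne out in every group. Mpo, a granule enzyme that marks promyelocytes, had a level of 12.41 to 13.51 in all 16 groups. It was not constant with RA. In transgenic PML/RARA at 12 h, Mpo had means of 13.38 untreated and 13.22 with RA, and Ctsg 13.18 and 12.95. Two-way movement was seen, as Elane had means of 12.76 and 13.27 there, and Prtn3 11.35 and 12.74. The promyelocyte marker level ran from 11.60 to 11.80 untreated and from 11.85 to 12.05 with RA. Their part in the mitosis result was not tested. The Pml probe set did not separate the arrays labelled Pml null from those labelled wild type (untreated at 6 h, 9.08 to 9.52 against 9.20 to 9.41); no source used here says which part of the gene it covers, so it checks nothing about that label.

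Mitosis genes are among the most cell cycle dependent of all transcripts. They are low in G1, when the DREAM repressor complex sits on their promoters, and peak in G2 and mitosis, when the B-Myb and FoxM1 activators replace it. DREAM and its activating counterparts bind a short element called the CHR, usually just downstream of one or more CCAAT boxes bound by NF-Y, whereas genes of DNA replication are switched mainly through E2F sites. In APL, RA releases the block to granulocyte differentiation, and maturing granulocytes stop dividing.

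Promoters are shown here because they hold the elements through which this gene family is known to be controlled. Of the 41 measured members, 34 matched an entry in RefSeq (GRCm38.p6), 3 of them with 2 start sites, giving 37 promoters. The 250 bases before each start were searched on both strands for 3 kinds of motif. One was the CCAAT box, which is named by its letters. The CHR was taken as TTTGAA, or its close form with letters TTCGAA. The E2F-like site was taken as TTTGGCGC or the related run TTTCGCGC. A CCAAT box stood in 73.0% of the members' promoters, against 33.9% of all 32841 promoters in the table, and 2 or more of them in 45.9% against 10.1%. The CHR letters stood in 43.2% against 17.1%, a CCAAT box together with a CHR in 37.8% against 6.02%, and the E2F-like site in 8.11% against 0.655%. Of the 81 matches, 2 shared a base with another match. The first 4 promoters printed belong to genes that fell with RA at 12 h in the transgenic PML/RARA leukaemias. The last 2 belong to members that rose with RA in at least one comparison. These 6 promoters are examples and do not stand for the members that fell or rose. Each runs 5′ to 3′ on the gene's strand and ends at the base before the start, and capitals mark the motif matches. They lie at chr11:99024190-99024439 (minus strand, Top2a), chr10:69352913-69353162 (minus, Cdk1), chr19:37376132-37376381 (plus, Kif11), chr15:102296043-102296292 (plus, Espl1), chr2:131186698-131186947 (plus, Cdc25b) and chr2:172370571-172370820 (minus, Aurka).
Top2a: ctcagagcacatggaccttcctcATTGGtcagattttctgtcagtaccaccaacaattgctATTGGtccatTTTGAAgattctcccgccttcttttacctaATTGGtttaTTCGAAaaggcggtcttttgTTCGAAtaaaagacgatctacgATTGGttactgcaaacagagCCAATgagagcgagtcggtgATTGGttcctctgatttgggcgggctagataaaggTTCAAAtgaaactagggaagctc
Cdk1: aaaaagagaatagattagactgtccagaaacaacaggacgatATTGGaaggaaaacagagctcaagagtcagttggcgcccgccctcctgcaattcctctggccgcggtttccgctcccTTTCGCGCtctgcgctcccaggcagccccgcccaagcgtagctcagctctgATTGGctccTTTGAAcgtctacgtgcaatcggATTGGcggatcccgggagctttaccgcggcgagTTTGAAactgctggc
Kif11: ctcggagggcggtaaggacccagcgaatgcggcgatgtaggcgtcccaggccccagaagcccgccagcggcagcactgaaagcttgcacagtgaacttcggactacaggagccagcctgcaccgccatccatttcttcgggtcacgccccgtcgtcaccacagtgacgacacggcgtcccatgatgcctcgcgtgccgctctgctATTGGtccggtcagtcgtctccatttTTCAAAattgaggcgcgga
Espl1: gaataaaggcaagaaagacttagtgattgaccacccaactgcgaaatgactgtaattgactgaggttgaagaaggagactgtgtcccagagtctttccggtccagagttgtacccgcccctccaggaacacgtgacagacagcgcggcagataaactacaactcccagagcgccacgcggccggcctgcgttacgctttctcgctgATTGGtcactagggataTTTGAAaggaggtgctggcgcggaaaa
Cdc25b: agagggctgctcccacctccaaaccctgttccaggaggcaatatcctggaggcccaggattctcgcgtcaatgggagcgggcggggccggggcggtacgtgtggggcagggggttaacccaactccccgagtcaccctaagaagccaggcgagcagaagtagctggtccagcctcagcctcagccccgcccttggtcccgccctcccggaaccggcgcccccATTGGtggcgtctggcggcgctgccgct
Aurka: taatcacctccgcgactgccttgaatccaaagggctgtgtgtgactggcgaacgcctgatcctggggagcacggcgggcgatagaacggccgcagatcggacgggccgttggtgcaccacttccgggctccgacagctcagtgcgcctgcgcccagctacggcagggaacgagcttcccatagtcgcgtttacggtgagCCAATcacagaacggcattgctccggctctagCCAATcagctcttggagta

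Top2a had 6 CCAAT boxes and 4 CHR matches, and Cdk1 had 3 CCAAT boxes, 2 CHR matches and the E2F-like site. Kif11 and Espl1 each had a single CCAAT box, 45 and 44 bases before the start, followed by a CHR 19 and 27 bases before it. Cdc25b had a CCAAT box 28 bases before the start and Aurka had CCAAT boxes at 51 and 19 bases, and neither window held the CHR letters. Members called lower with RA at 12 h in transgenic PML/RARA had the CHR letters in 10 of 18 promoters (55.6%), against 6 of the other 19 (31.6%). A CCAAT box stood in 72.2% against 73.7%, and a CCAAT box together with a CHR in 44.4% against 31.6%. Ect2 and Prc1 enter the first set, and Bub3 the other, with 2 overlapping windows each. Ccna2, Aurkb, Foxm1 and Kif20a were also called lower but matched no promoter entry. The other set includes members with effects below 0 without a call, such as Kif4 and Kif18a. Mad2l1, Ndc80 and Nuf2 fell and had no match of any of the 3 motifs. Bub1b, which rose in viral wild type leukaemias at 6 h, had a CHR match. These matches are descriptions of letters and show no binding.

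**Figure D1:**
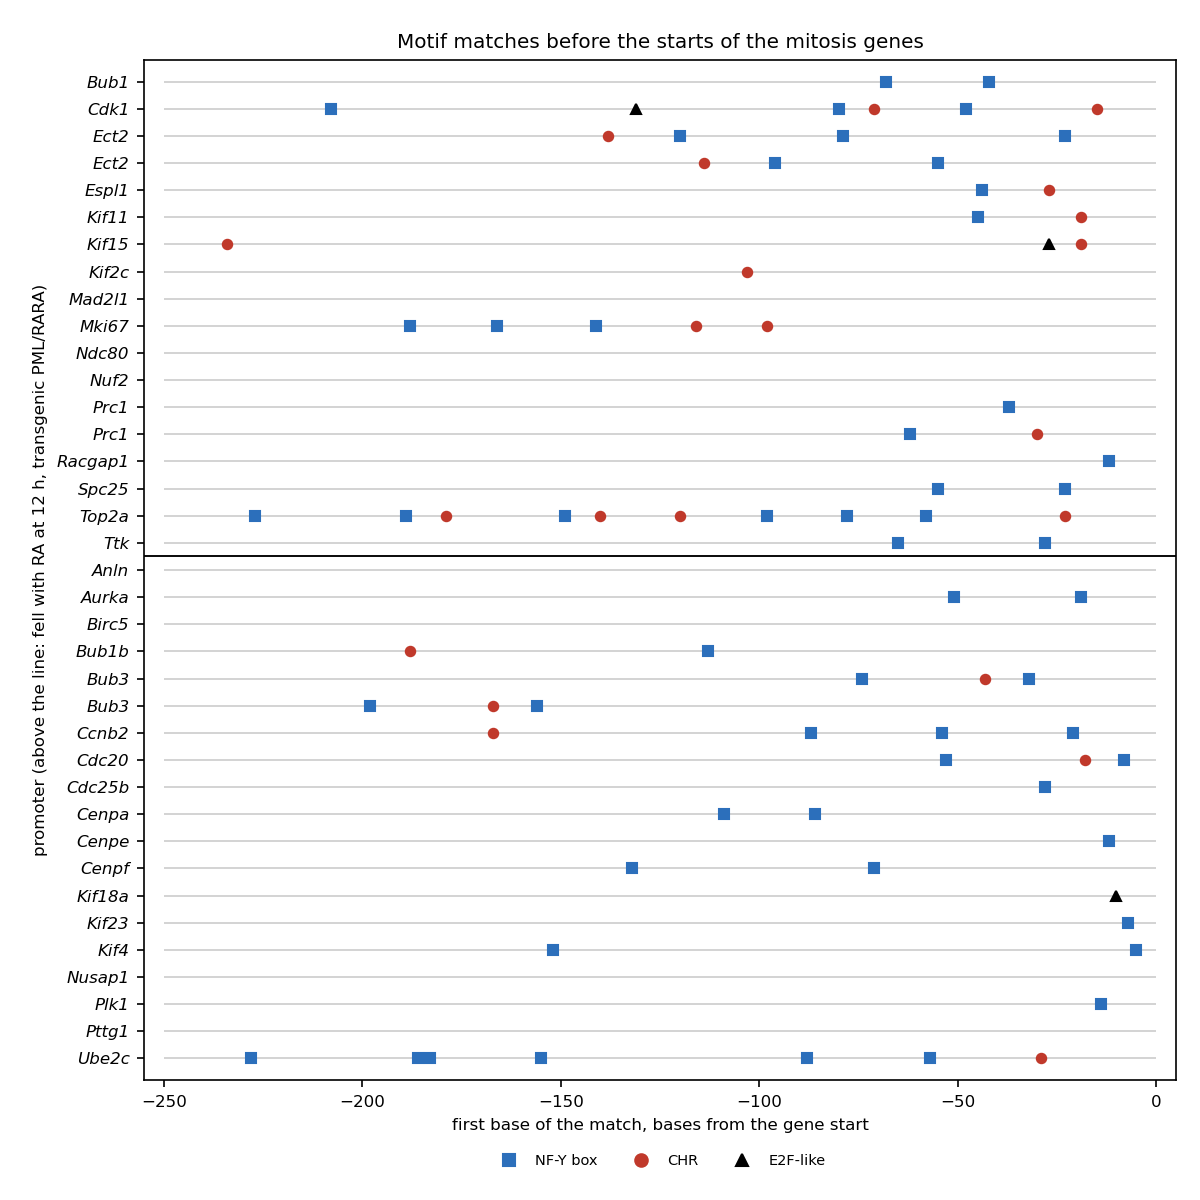
Position of each motif match in the 250 bases before the start of the members' promoters (horizontal axis, bases from the gene start; one line per promoter), with the members that fell with RA at 12 h in transgenic PML/RARA above the dividing line. Of the CCAAT matches (labelled NF-Y box), 38 of 56 lie within the last 100 of the 250 bases searched, as do 11 of 22 CHR matches. The matches are letters and show no binding.

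In the transgenic PML/RARA leukaemias, few mitosis genes changed after 6 h of RA. At this time 3 of 41 members rose and 1 fell (limma, adjusted p below 0.05 over all genes), where 5.81% of all genes tested rose and 8.54% fell. The members' median RA effect was −0.05, beside 0.02 over all genes. The changed members were Cdc25b, Aurka and Cenpa, which rose, and Espl1, which fell.

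Cdc25b encodes the phosphatase that first activates Cdk1 at entry into mitosis. Its untreated arrays at 6 h had levels of 9.30, 9.39, 9.61 and 9.88, and the 8 RA arrays ran from 9.93 through a median of 10.19 to 10.47. Every RA array was above every untreated array. The rise was 0.68 ± 0.13 (SE, n = 4 and 8; 1.60-fold, adjusted p = 0.000211).

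Aurka, the centrosomal Aurora kinase, had untreated levels of 9.95, 9.96, 10.01 and 10.46 and RA levels of 10.29, 10.39 and 10.56 (lowest, median, highest). One untreated array lay inside the RA range and the other three below it. Aurka rose by 0.35 ± 0.09 (adjusted p = 0.00683). Cenpa, the histone variant that marks centromeres, rose by 0.28 ± 0.09 (adjusted p = 0.0233).

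Espl1 encodes separase, the protease that cuts cohesin at anaphase. It had untreated levels of 9.37, 9.61, 9.67 and 9.77 and RA levels of 8.95, 9.20 and 9.52 (lowest, median, highest), so the ranges met only at the lowest untreated array. The change was −0.42 ± 0.14 (adjusted p = 0.0388). It lost its call when any of 8 of the 12 arrays was left out. Without untreated replicate 2, 3 or 4 the count of called members was 2 instead of 4. Within batch 1 it was 2 and within batch 2 it was 1, with member medians of −0.05 and −0.04. In the same arrays 1 of 8 erythroid markers and 0 of 9 B cell markers rose (medians 0.75 and 0.49), where 5.81% of all genes rose. The mean erythroid marker level was 8.88 untreated and 9.51 with RA, and the B cell marker level ran from 6.39 to 7.64 untreated and from 6.91 to 8.54 with RA. Their part in the changes at 6 h was not tested.

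After 12 h the transgenic PML/RARA leukaemias had lower levels of mitosis genes. Of the 41 members, 20 fell and 1 rose, where 11.7% of all genes tested fell and 9.88% rose. The median RA effect was −0.31 over the members, ranging from −0.71 (Ttk) to 0.75 (Cdc25b), and −0.01 over all genes. The effect was below 0 in 35 of 41 members, beside 53.5% of all genes. By role, 3 of 6 genes of mitotic entry, 1 of 6 kinases and passenger genes, 3 of 5 checkpoint genes and 1 of 4 anaphase genes fell. So did 3 of 6 kinetochore genes, 4 of 8 kinesins and spindle genes, 3 of 4 cytokinesis genes and both genes of chromosome structure. With 11.7% of all genes falling, a single call in a role of 6 or 4 genes says little about that role.

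**Figure D2:**
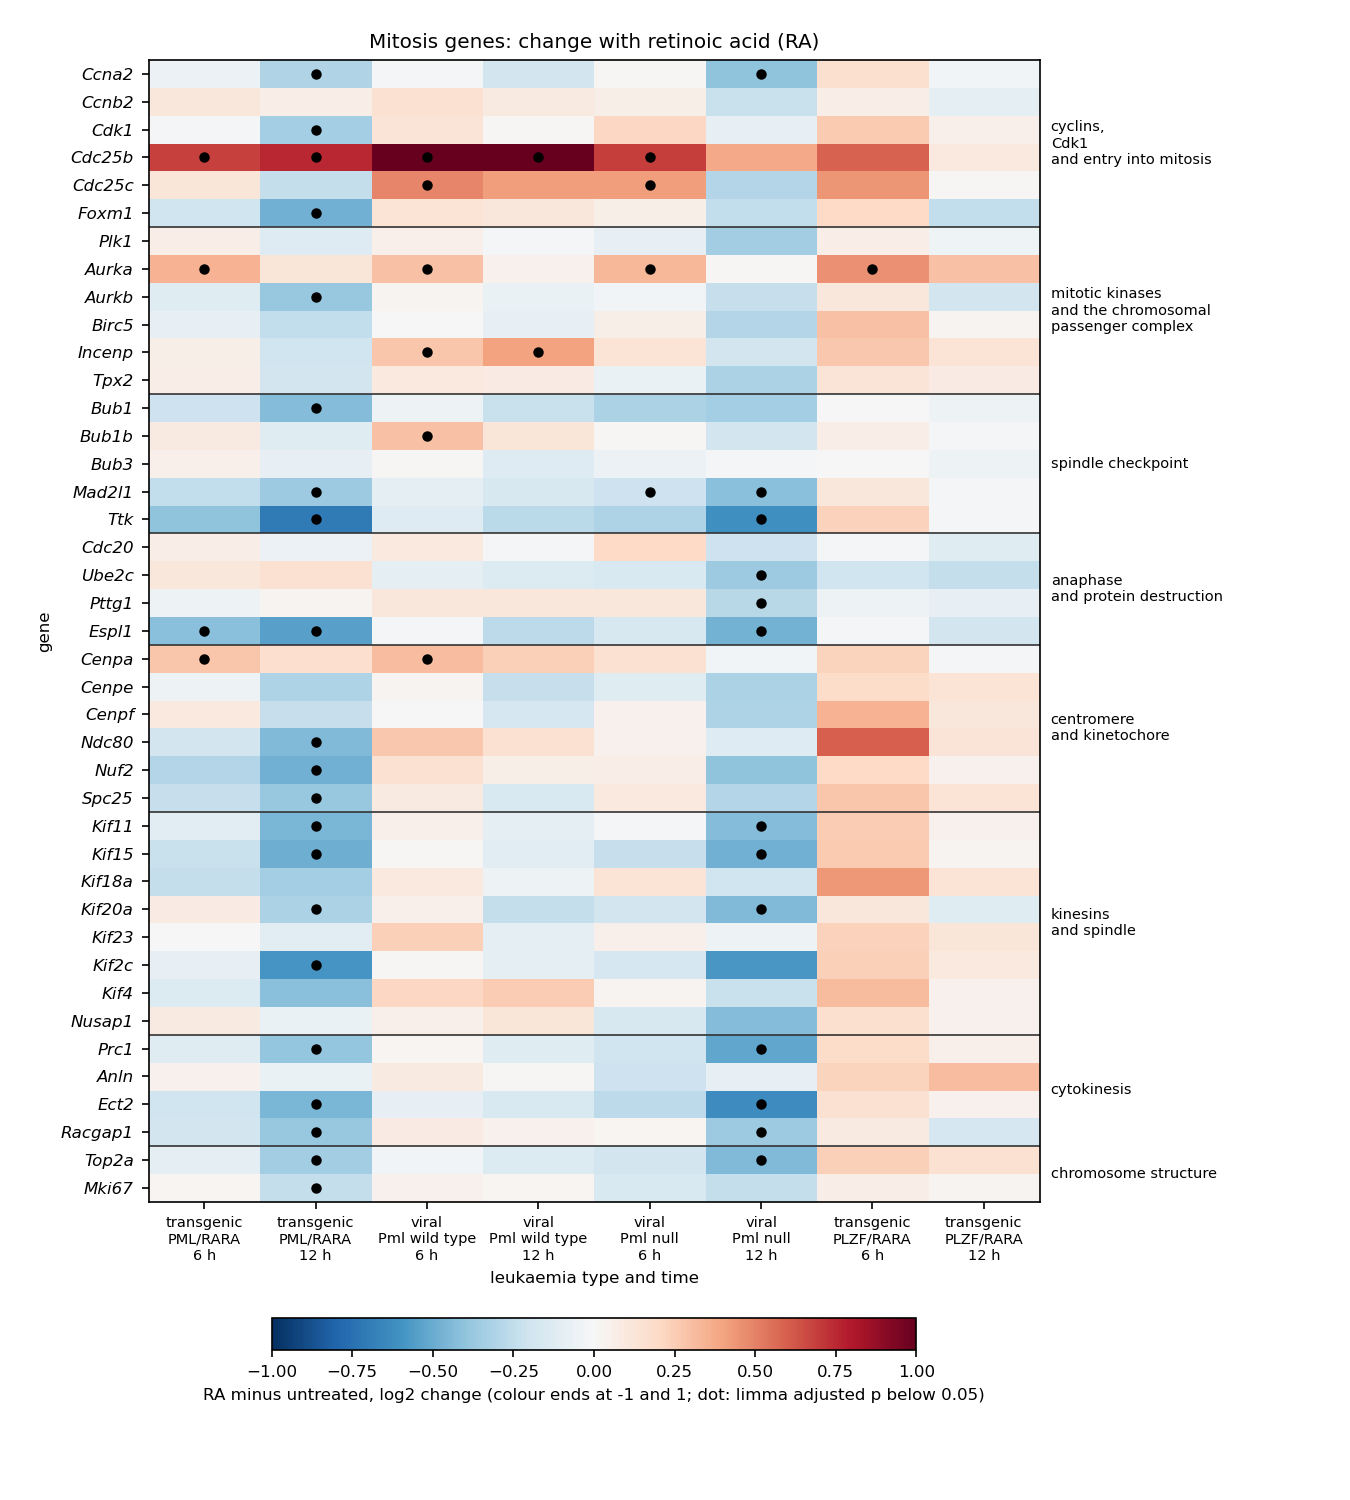
RA effect (RA minus untreated, log2, colour scale) of the 41 members (rows, grouped by role) in the 4 leukaemia types at 6 h and 12 h (columns), with a dot where limma called the change. Dots lie mainly in 2 columns, transgenic PML/RARA at 12 h with 20 called falls and viral Pml null at 12 h with 13, and Cdc25b is above 0 in all 8 columns.

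At entry into mitosis, Cdc25b was the only member that rose at 12 h. The untreated arrays had Cdc25b levels of 8.91, 9.02, 9.33 and 9.49 and the RA arrays 9.50, 9.89 and 10.37 (lowest, median, highest). The groups did not overlap, by a narrow margin. Cdc25b rose by 0.75 ± 0.12 (1.69-fold, adjusted p = 1.87e-05).

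Foxm1, the transcription factor that activates many of the other members, moved the opposite way. Its untreated levels were 9.54, 9.60, 9.79 and 9.80, and the RA arrays had 8.85, 9.19 and 9.56 (lowest, median, highest). Only the highest RA array reached the untreated range. Foxm1 fell, with a change of −0.48 ± 0.09 (adjusted p = 0.000171). Cdk1, the kinase that drives mitosis, changed by −0.34 ± 0.09 (adjusted p = 0.00752), and its partner Ccna2, cyclin A2, by −0.30 ± 0.10 (adjusted p = 0.0338). Ccnb2, a B-type cyclin, had an effect of 0.07 and was not called.

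Among the kinases, Aurkb was called. It is the enzymatic subunit of the chromosomal passenger complex, which corrects faulty attachments of chromosomes to the spindle. Aurkb had untreated levels of 11.34, 11.41, 11.45 and 11.60 and RA levels of 10.80, 11.07 and 11.37 (lowest, median, highest). The ranges met at a single array on each side. The change was −0.38 ± 0.08 (adjusted p = 0.000562). Its complex partners Birc5 (survivin) and Incenp had effects of −0.25 and −0.20 that did not pass the test. Plk1, a kinase of several mitotic steps, had an effect of −0.13, and Aurka 0.12, neither called.

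The spindle checkpoint holds anaphase back until every chromosome is attached. Its kinase Ttk (Mps1) had untreated levels of 8.58, 8.61, 8.62 and 9.38, and RA levels of 7.65, 8.08 and 8.61 (lowest, median, highest). A single untreated array stood above the other three, and only the highest RA array reached the untreated range. Ttk changed by −0.71 ± 0.17, the lowest effect among the members (1.64-fold lower, adjusted p = 0.00191). The checkpoint kinase Bub1 changed by −0.43 ± 0.12 (adjusted p = 0.00521) and the inhibitor Mad2l1 by −0.36 ± 0.10 (adjusted p = 0.00981). Bub3, which carries Bub1 to kinetochores, had an effect of −0.08 and was not called.

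Of the anaphase genes, Espl1 again fell. Its untreated levels were 9.10, 9.14, 9.22 and 9.39 and its RA levels 8.04, 8.71 and 9.20 (lowest, median, highest). The RA arrays were spread widely, and the highest reached the untreated range. The change was −0.54 ± 0.14 (adjusted p = 0.00286). The remaining anaphase members, Cdc20 (an activator of the anaphase promoting complex), Ube2c (its ubiquitin-conjugating enzyme) and Pttg1 (securin, the inhibitor of separase), had effects of −0.06, 0.15 and 0.03 and were not called.

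At the kinetochore, the called members were subunits of the Ndc80 complex, which binds microtubules. Spc25 had untreated levels of 8.61, 8.83, 8.99 and 9.01 and RA levels of 8.02, 8.55 and 8.69 (lowest, median, highest). The lowest untreated array lay within the RA range. Spc25 changed by −0.38 ± 0.10 (adjusted p = 0.00609), Nuf2 by −0.48 ± 0.13 (adjusted p = 0.00687) and Ndc80 by −0.44 ± 0.14 (adjusted p = 0.017). Cenpe, a kinetochore motor, had an effect of −0.31 without a call, and Cenpa 0.17 without a call.

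Kinesins build the spindle and move chromosomes on it. Kif2c, which depolymerises microtubules at centromeres, had untreated levels of 9.50, 9.80, 9.95 and 10.01 and RA levels of 8.78, 9.22 and 9.57 (lowest, median, highest). Only the lowest untreated array lay within the RA range. The change was −0.59 ± 0.13 (1.51-fold lower, adjusted p = 0.000566). Kif11 (Eg5), which pushes spindle poles apart, had untreated levels of 10.80, 10.86, 10.87 and 11.04 and an RA range of 10.01 to 10.76. Its groups did not overlap. Kif11 changed by −0.46 ± 0.11 (adjusted p = 0.00155), Kif15 by −0.49 ± 0.13 (adjusted p = 0.00354) and Kif20a by −0.32 ± 0.11 (adjusted p = 0.0374). The chromosome motor Kif4 had a difference of −0.42 and Kif18a one of −0.34, and neither passed the test.

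Cytokinesis parts the daughter cells. Racgap1, a subunit of the centralspindlin complex, had untreated levels of 9.79, 9.97, 10.15 and 10.18 and RA levels of 9.29, 9.65 and 10.00 (lowest, median, highest). These ranges overlapped. Racgap1 changed by −0.38 ± 0.10 (adjusted p = 0.00334), its partner Ect2, which activates RhoA at the cleavage site, by −0.46 ± 0.12 (adjusted p = 0.00403), and the midzone bundler Prc1 by −0.39 ± 0.12 (adjusted p = 0.0171). Anln (anillin) had an effect of −0.07 and was not called.

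In chromosome structure, Top2a, the topoisomerase that untangles sister chromatids, had untreated levels of 10.53, 10.82, 10.84 and 11.01 and RA levels of 10.07, 10.50 and 10.69 (lowest, median, highest). One untreated array lay among the RA arrays. The change was −0.35 ± 0.10 (adjusted p = 0.00858). Mki67, which encodes the proliferation antigen Ki-67 of the chromosome surface, changed by −0.24 ± 0.08 (adjusted p = 0.0406).

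**Figure D3:**
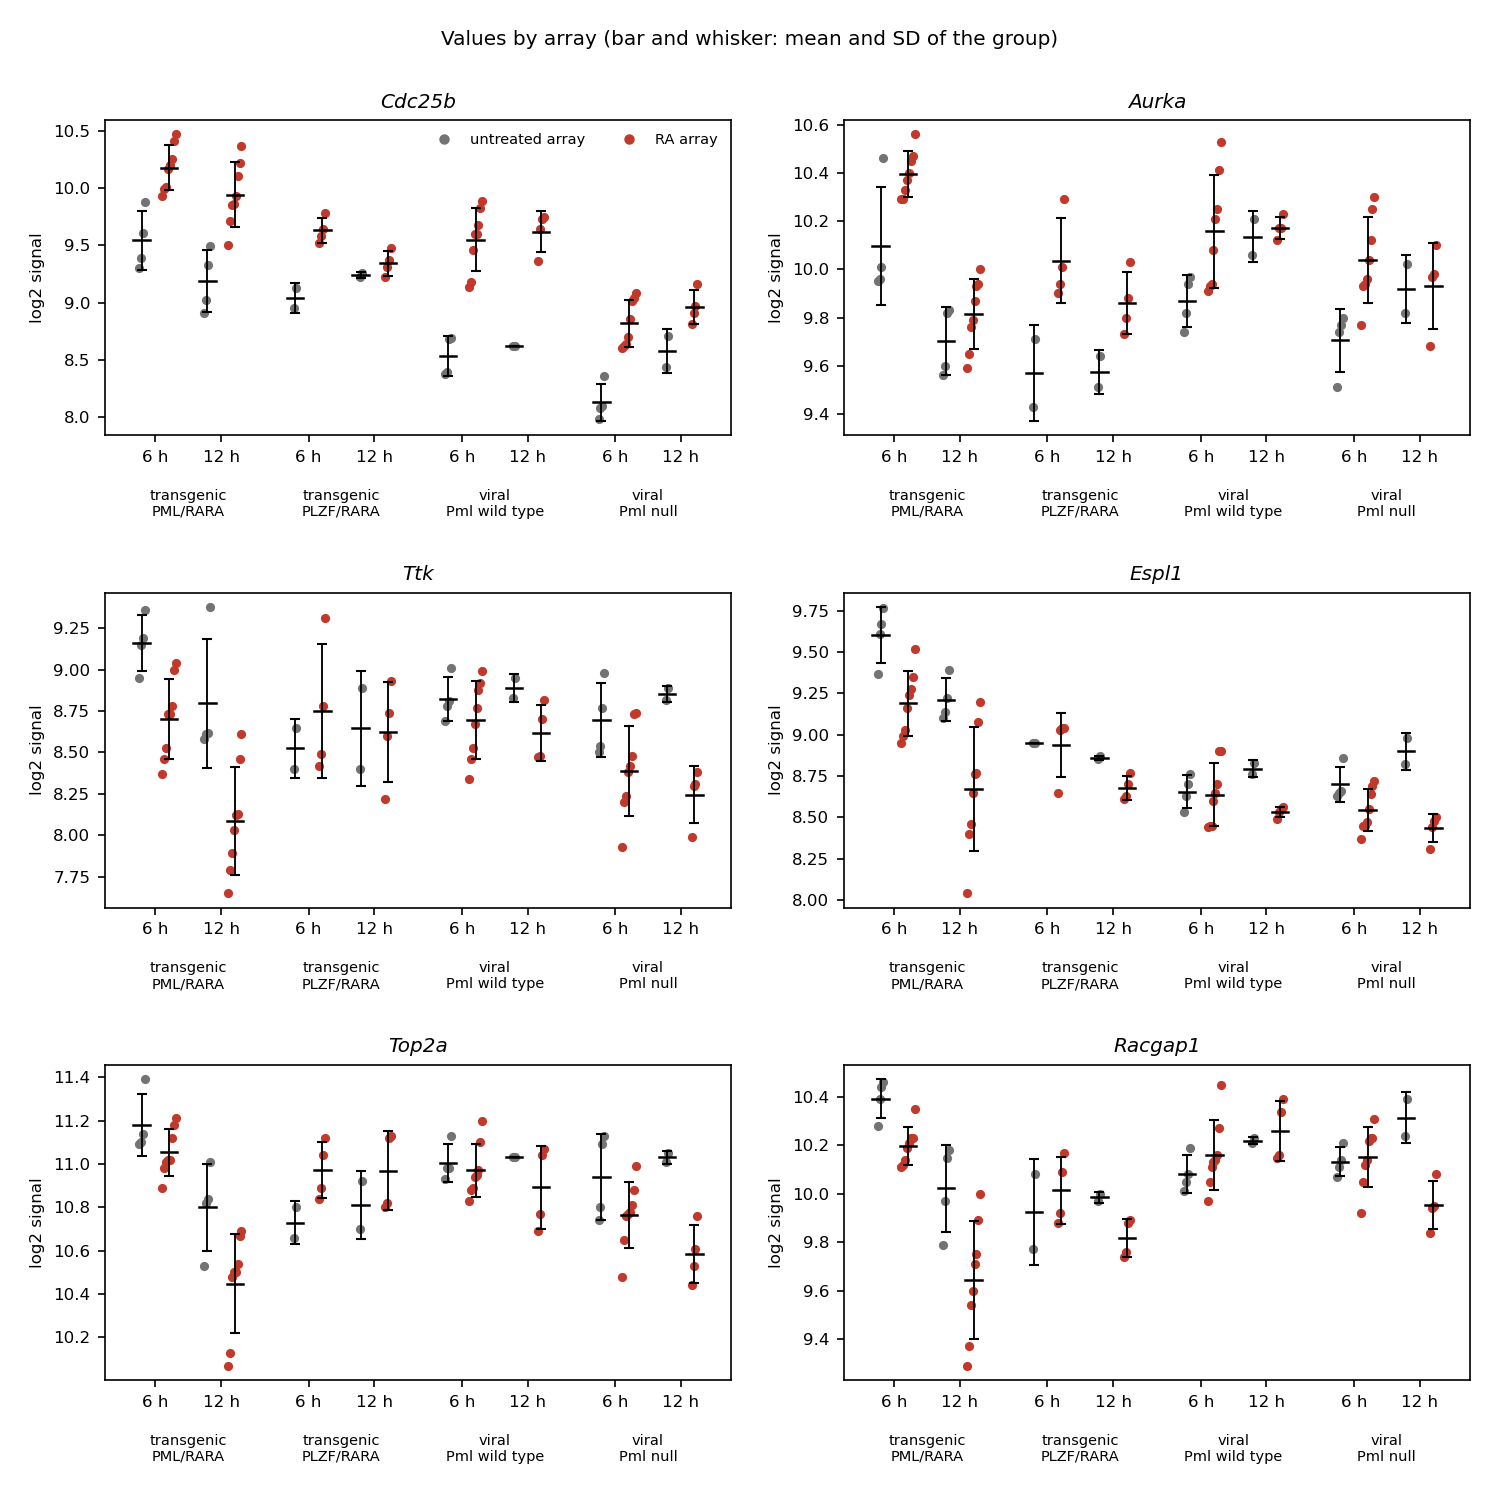
Level (log2, vertical axis) of Cdc25b, Aurka, Ttk, Espl1, Top2a and Racgap1 on each array (points) in the 16 groups, with the mean and SD of each group. At 12 h in transgenic PML/RARA, all RA arrays lie above all untreated arrays for Cdc25b, from 9.50 upwards, and reach down to 7.65 for Ttk and 8.04 for Espl1.

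The count at 12 h ran from 15 to 25 called members as each array was left out in turn. RA replicates 7 and 4 stood below the other RA arrays, with member means of 9.28 and 9.31 against 9.65 to 9.87, and without both, 13 members fell, 2 rose and the median was −0.19. The untreated arrays at 12 h had member means of 9.75, 9.79, 9.92 and 10.04, so they overlapped with the highest RA arrays. Between untreated arrays, the estimated difference 12 h minus 6 h was below 0 in all 41 members, with a median of −0.27 and a range from −0.47 to −0.05. None of these differences passed the test (lowest adjusted p = 0.645; 18 had an unadjusted p below 0.05), and 0% of all genes did. The median over all genes is not given here, so a drift particular to mitosis genes was not shown. Set against untreated arrays of both times, the RA arrays at 12 h gave 32 falls and 1 rise with a median of −0.41. This fit takes in the untreated 6 h arrays, whose estimated levels were higher for all 41 members. The share of all genes called is not given for this fit or for the fit without RA replicates 7 and 4. Their counts therefore cannot be set against all genes here.

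**Figure D4:**
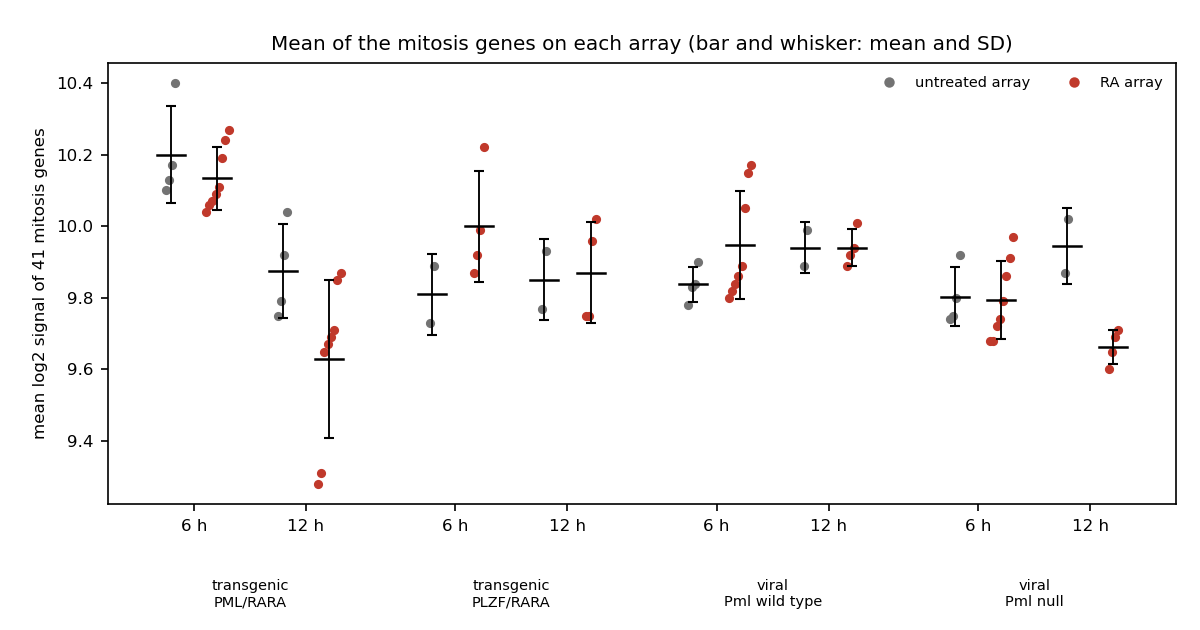
Mean log2 level of the 41 members on each array (points) by group. In transgenic PML/RARA at 12 h the 8 RA arrays run from 9.28 to 9.87 and the 4 untreated arrays from 9.75 to 10.04, and in viral Pml null at 12 h the 4 RA arrays (9.60 to 9.71) lie below both untreated arrays (9.87 and 10.02).

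Markers of other cells moved with RA in the same arrays, where 9.88% of all genes tested rose and 11.7% fell. At 12 h, 5 of 8 measured erythroid markers rose (median 0.61), and their mean level ran from 8.25 to 9.12 untreated and from 8.43 to 10.13 with RA. Mature neutrophil markers rose in 5 of 12 and fell in 1 (median 0.36; mean level 11.32 to 11.42 untreated, 11.50 to 12.00 with RA), and stroma and endothelium markers rose in 4 of 8 and fell in 1 (median 0.48; 7.50 to 8.25 against 7.92 to 8.62). Of 9 B cell markers 2 rose and 1 fell (median 0.52; 6.60 to 6.95 against 6.73 to 7.84). Their part in the mitosis result was not tested.

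In the PLZF/RARA leukaemias, whose fusion partner makes the human disease poorly responsive to RA, no mitosis gene fell with a call. At 6 h, 1 of 41 members rose and 0 fell, where 1.45% of all genes tested rose and 0.747% fell; 5 members had an unadjusted p below 0.05. The members' median was 0.20, beside 0.06 over all genes. The gene that rose was Aurka, with untreated levels of 9.43 and 9.71 and RA levels of 9.90, 9.94, 10.01 and 10.29. All 4 RA arrays were above both untreated arrays. The rise of 0.46 ± 0.12 (n = 2 and 4, adjusted p = 0.041) lost its call without untreated replicate 1 or 2 or RA replicate 1, leaving 0 called members, and without RA replicate 2 or 4 there were 2. Cdc25b had untreated levels of 8.95 and 9.13 and RA levels from 9.52 to 9.78, and its difference of 0.59 was not called.

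At 12 h in PLZF/RARA, 0 members rose and 0 fell in limma's test, where 2.46% of all genes tested rose and 1.57% fell. An unadjusted p below 0.05 was found for 2 members, and array weights also called 0. The median was 0.03, beside −0.05 over all genes. Ttk had untreated levels of 8.40 and 8.89 and RA levels of 8.22, 8.60, 8.74 and 8.93, so the groups were interleaved. Aurka still had all RA arrays (9.73, 9.80, 9.88 and 10.03) above both untreated arrays (9.51 and 9.64), without a call.

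Whether the fusion partner changed the RA response was tested as the difference of RA effects, PML/RARA minus PLZF/RARA, averaged over both times. It was below 0 in 34 of 41 members and called below 0 in 7, called above 0 in none (limma; 24 unadjusted), where 4.07% of all genes were called below 0 and 3.35% above. The members' median was −0.29, beside 0.00 over all genes. Called genes were in the checkpoint (Ttk), the kinetochore (Ndc80, Spc25), the kinesins (Kif2c, Kif15, Kif11) and chromosome structure (Top2a).

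Ndc80, the microtubule-binding subunit that names its complex, differed most. In PML/RARA its untreated levels at 12 h were 8.29, 8.36, 8.52 and 8.74 and its RA levels 7.70, 8.03 and 8.48 (lowest, median, highest). In PLZF/RARA at 6 h it had untreated levels of 8.09 and 8.32 and RA levels of 8.48, 8.53, 9.01 and 9.20. At these times RA arrays were mostly below the untreated ones in the first leukaemia and above them in the other. At the remaining times the groups overlapped: PML/RARA at 6 h had untreated levels from 8.76 to 9.27 and RA levels from 8.53 to 9.03, and PLZF/RARA at 12 h had untreated levels of 8.25 and 8.54 and RA levels of 8.31, 8.44, 8.48 and 8.89. The difference of effects over both times was −0.68 ± 0.17 (adjusted p = 0.00889).

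Spc25 encodes a partner in the same complex. In PLZF/RARA at 6 h it had untreated levels of 8.53 and 8.58 and RA levels of 8.75, 8.75, 8.85 and 9.02, with no overlap. At 12 h its PLZF/RARA groups overlapped, with untreated levels of 8.56 and 8.79 and RA levels of 8.62, 8.83, 8.88 and 8.92, as did its PML/RARA groups at both times. The difference of effects for Spc25 was −0.52 ± 0.13 (adjusted p = 0.00885). Top2a had PLZF/RARA levels of 10.66 and 10.80 untreated and 10.84, 10.89, 11.04 and 11.12 with RA at 6 h. These groups did not overlap, whereas those at 12 h did, and the difference of effects was −0.42 ± 0.12 (adjusted p = 0.03). The values for Ttk were −0.66 ± 0.21 (adjusted p = 0.0492), for Kif2c −0.51 ± 0.16 (adjusted p = 0.0409), for Kif15 −0.50 ± 0.15 (adjusted p = 0.0413) and for Kif11 −0.43 ± 0.13 (adjusted p = 0.0409).

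This comparison rested on few PLZF/RARA arrays. Leaving out 1 array changed the count by more than 1.5 times for 15 of 36 arrays. It was 0 without PLZF/RARA untreated 12 h replicate 2, the only fit in which Ndc80 and Spc25 lost this call. It was 11 without replicate 1 of that group. It was 13 without PLZF/RARA RA 6 h replicate 2 or PML/RARA RA 12 h replicate 1. It fell to 2 without PLZF/RARA untreated 6 h replicate 1 or 2, PLZF/RARA RA 12 h replicate 1 or 3, or PML/RARA untreated 12 h replicate 2. It fell to 3 without PLZF/RARA RA 6 h replicate 1 or 3, PML/RARA untreated 6 h replicate 1 or 4, or PML/RARA RA 6 h replicate 1, and to 4 without PML/RARA untreated 6 h replicate 3. Ttk lost its call in 26 of 36 such fits. At 6 h alone or 12 h alone 0 members were called, and within batch 1 there were 2.

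Untreated PML/RARA leukaemias had more of several mitosis transcripts than untreated PLZF/RARA leukaemias, averaged over both times. Higher levels were called in 9 of 41 members and a lower level in 1, where 13.1% of all genes tested were higher and 12.2% lower. The members' median difference was 0.15, beside 0.01 over all genes. Ect2 had levels of 10.61, 10.67, 10.77 and 10.87 in untreated PML/RARA at 6 h, against 9.54 and 9.79 in untreated PLZF/RARA. At 12 h the PML/RARA arrays ran from 10.29 to 10.68, against 9.58 and 9.72. The groups did not overlap at either time. Ect2 was higher by 0.89 ± 0.12 (1.85-fold, adjusted p = 6.03e-07).

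Pttg1 (securin) had untreated 6 h levels of 9.71, 9.99, 10.10 and 10.13 in PML/RARA and 9.29 and 9.34 in PLZF/RARA, and was higher by 0.64 ± 0.11 (1.56-fold, adjusted p = 1.29e-05). Ccna2 was higher by 0.52 ± 0.11 (adjusted p = 0.000227), with levels of 11.48 to 11.73 against 10.75 and 10.93 at 6 h. Both genes separated the leukaemias at 6 h without overlap. Espl1 (0.51 ± 0.14, adjusted p = 0.00537), Spc25 (0.47 ± 0.11, adjusted p = 0.000936), Anln (0.46 ± 0.11, adjusted p = 0.00104), Foxm1 (0.39 ± 0.10, adjusted p = 0.00225), Mad2l1 (0.36 ± 0.11, adjusted p = 0.0103) and Aurka (0.28 ± 0.09, adjusted p = 0.0196) were also higher. Ccnb2 was the member called lower, with a difference of −0.26 ± 0.09 (adjusted p = 0.0416), and lost its call in 6 of 12 fits that left out an array. The 12 h arrays alone called 2 higher and 1 lower. Erythroid markers were higher in 6 of 8 (median 1.30), with mean levels of 8.25 to 9.12 in PML/RARA at 12 h against 6.98 and 7.05 in PLZF/RARA, and mature neutrophil markers in 6 of 12 (median 0.42); their part in these differences was not tested.

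**Figure D5:**
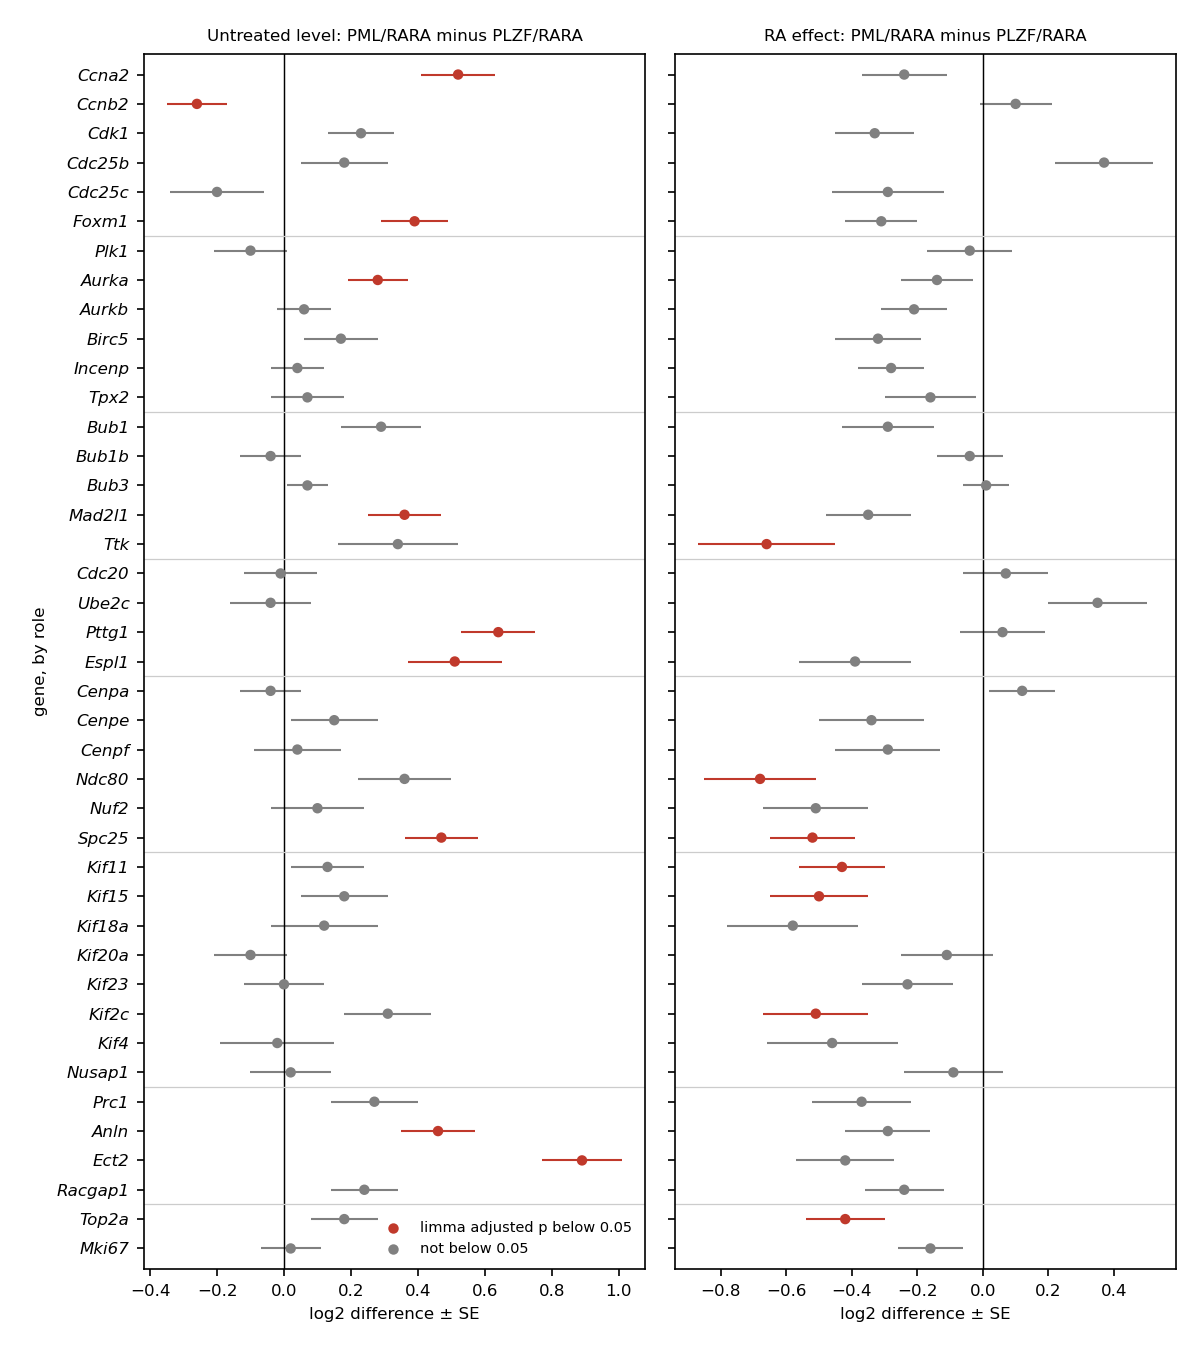
Difference between transgenic PML/RARA and PLZF/RARA leukaemias (log2 ± SE) for each member, in the untreated level and in the RA effect, both averaged over 6 h and 12 h. Untreated differences reach 0.89 for Ect2, and RA effect differences lie below 0 for 34 of 41 members, down to −0.68 for Ndc80.

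In the viral model with wild type Pml, every called change of a mitosis gene with RA was a rise. At 6 h, 6 of 41 members rose and 0 fell, where 5.44% of all genes tested rose and 4.44% fell; 9 members had an unadjusted p below 0.05. The members' median was 0.05, beside 0.03 over all genes. Cdc25b had untreated levels of 8.38, 8.39, 8.68 and 8.69 and RA levels of 9.14, 9.60 and 9.89 (lowest, median, highest). A wide gap separated the groups. Cdc25b rose by 1.01 ± 0.12 (2.02-fold, adjusted p = 6.04e-07), and by 0.97 within batch 3 and 1.05 within batch 4.

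Cdc25c, a second Cdk1-activating phosphatase, had untreated levels of 7.73, 7.78, 7.96 and 8.01 and RA levels of 7.88, 8.41 and 8.58 (lowest, median, highest). Only the lowest RA array fell in the untreated range. It rose by 0.49 ± 0.14 (adjusted p = 0.0171). Cenpa rose by 0.31 ± 0.06 (adjusted p = 0.000903), the checkpoint kinase Bub1b by 0.29 ± 0.06 (adjusted p = 0.00175), the passenger scaffold Incenp by 0.28 ± 0.08 (adjusted p = 0.0244) and Aurka by 0.29 ± 0.09 (adjusted p = 0.0381). Without untreated replicate 1 the count was 3, and within batches 3 and 4 it was 1 and 3. Aurka lost its call in 8 of 12 fits that left out an array.

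At 12 h in viral wild type leukaemias, 2 of 41 members rose and 0 fell, where 3.03% of all genes rose and 3.07% fell (6 members unadjusted). The median was −0.05, beside 0.01 over all genes. Both untreated arrays had a Cdc25b level of 8.62 and the RA arrays ran from 9.36 to 9.75, again with no overlap. Cdc25b rose by 1.00 ± 0.18 (adjusted p = 0.00043). Incenp rose by 0.40 ± 0.12 (adjusted p = 0.0366), a call lost without untreated replicate 1 or 2 or RA replicate 3 or 4, which left 1 called member. Ttk had a difference of −0.27 and Top2a one of −0.14, neither called. Without a call, every RA array lay below both untreated arrays for Bub1, Bub3, Ccna2, Cenpe, Cenpf, Ect2, Espl1, Kif11, Kif20a, Mad2l1 and Ttk. Every RA array lay above both for Bub1b, Cdc25b, Cenpa, Incenp and Ndc80. How often all genes separate in this way was not counted, so these lists show nothing particular to mitosis genes. Members separated without a call in other groups too, such as Cdk1 and Foxm1, higher with RA in PLZF/RARA at 6 h.

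In the viral leukaemias labelled Pml null, Cdc25b, Aurka and Cdc25c rose at 6 h. Of 41 members, 3 rose and 1 fell, where 4.97% of all genes tested rose and 6.38% fell, and the median was 0.01, beside 0.02 over all genes. Cdc25b had untreated levels of 7.98, 8.08, 8.10 and 8.36 and RA levels from 8.60 to 9.08, without overlap, and rose by 0.69 ± 0.12 (adjusted p = 0.000212). Aurka, with untreated levels of 9.51, 9.74, 9.77 and 9.80 and RA levels of 9.77, 10.00 and 10.30 (lowest, median, highest), rose by 0.33 ± 0.09 (adjusted p = 0.0141). Only one RA array reached into the untreated range. Cdc25c rose by 0.42 ± 0.14 (adjusted p = 0.0414) and Mad2l1 fell, with a change of −0.21 ± 0.06 (adjusted p = 0.0267). The count was 2 without untreated replicate 1 and 1 without untreated replicate 2 or 4, and 1 within batch 3.

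At 12 h the Pml null leukaemias had fewer mitosis transcripts with RA: 13 of 41 members fell and 0 rose, where 1.83% of all genes tested fell and 4.22% rose. The median was −0.29, beside 0.01 over all genes, and 39 members had an effect below 0, beside 48.1% of all genes. Only 2 untreated and 4 RA arrays carry this comparison, and the count was 1 without untreated replicate 1, 3 without untreated replicate 2, 5 without RA replicate 2 and 7 without RA replicate 4.

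Among cytokinesis genes, Ect2 had a level of 10.53 on both untreated arrays and 9.73, 9.86, 9.97 and 10.05 on the RA arrays. The groups did not overlap. The change was −0.63 ± 0.14 (1.54-fold lower, adjusted p = 0.0029). Prc1 went from 9.93 and 10.13 to 9.35, 9.49, 9.60 and 9.61, a change of −0.52 ± 0.11 (adjusted p = 0.00261), and Racgap1 changed by −0.36 ± 0.10 (adjusted p = 0.0336). Among anaphase genes, Espl1 had untreated levels of 8.82 and 8.98 and RA levels of 8.31, 8.44, 8.48 and 8.50, with a change of −0.47 ± 0.11 (adjusted p = 0.00463). Ube2c (−0.36 ± 0.10, adjusted p = 0.0335) and Pttg1 (−0.28 ± 0.09, adjusted p = 0.0464) fell as well.

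In the spindle checkpoint, Ttk had untreated levels of 8.82 and 8.89 and RA levels of 7.99, 8.30, 8.31 and 8.38 and changed by −0.61 ± 0.18 (1.53-fold lower, adjusted p = 0.0334). Mad2l1 changed by −0.42 ± 0.09 (adjusted p = 0.00252). For both genes every RA array was below every untreated array. Ccna2 had untreated levels of 11.52 and 11.57 and RA levels of 11.10, 11.15, 11.17 and 11.18, a change of −0.40 ± 0.09 (adjusted p = 0.00379). Top2a had untreated levels of 11.01 and 11.05 and RA levels of 10.44, 10.53, 10.61 and 10.76, a change of −0.44 ± 0.13 (adjusted p = 0.029). RA arrays of both genes lay below the untreated ones without overlap. The kinesins Kif11 (−0.43 ± 0.11, adjusted p = 0.0169), Kif15 (−0.48 ± 0.13, adjusted p = 0.0237) and Kif20a (−0.44 ± 0.14, adjusted p = 0.0484) fell, while Kif2c had a difference of −0.58 that was not called. Cdc25b, with untreated levels of 8.44 and 8.71 and RA levels from 8.81 to 9.16, had a difference of 0.38 that was not called.

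In Pml null at 12 h, 4.22% of all genes tested rose and 1.83% fell. Mature neutrophil markers rose in 6 of 12 in these arrays (median 1.09), and 0 of 8 erythroid markers changed. The neutrophil markers had mean levels of 9.35 and 9.81 untreated and 10.18 to 10.81 with RA. Their part in the mitosis result was not tested. The 13 genes that fell here and the 20 that fell in transgenic PML/RARA at 12 h shared 11 genes, which is 84.6% of the first list and 55% of the second, and the comparisons have no array in common. The shared genes were Ccna2, Ect2, Espl1, Kif11, Kif15, Kif20a, Mad2l1, Prc1, Racgap1, Top2a and Ttk. Sharing over all genes was not counted, so whether 11 is more than such lists would share anyway was not tested. The list of 13 also shrank to 1 gene without untreated replicate 1.

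The RA effects of wild type and Pml null viral leukaemias, averaged over both times, were not shown to differ for any member. The difference, wild type minus null, was above 0 in 39 of 41 members with a median of 0.21, beside 0.00 over all genes. Limma called 0 members in either direction, where 0.381% of all genes were called above 0 and 0.752% below, while 18 members had an unadjusted p below 0.05. A fit with array weights called 4. Cdc25b had the highest difference, 0.47.

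Untreated viral leukaemias differed in few members. Against Pml null, wild type leukaemias had 2 members higher and 1 lower, where 9.92% of all genes tested were higher and 10.9% lower, and the members' median was 0.01. Birc5, a passenger complex subunit, had levels of at most 9.13 on the 4 wild type arrays and of 9.23, 9.24, 9.35 and 9.50 on the null arrays at 6 h, and of 9.17 and 9.26 against 9.51 and 9.62 at 12 h, and differed by −0.31 ± 0.07 (lower in wild type, adjusted p = 0.000901). No wild type array reached the null range of its time. Bub1 was higher by 0.42 ± 0.12 (adjusted p = 0.00914) and the midzone kinesin Kif23 by 0.33 ± 0.11 (adjusted p = 0.0262). Bub1 lost its call without null untreated 12 h replicate 2, and Kif23 in 4 of 12 fits that left out an array. All 12 measured mature neutrophil markers were higher in wild type (median 2.32) and 6 of 10 monocyte and macrophage markers, and their part was not tested.

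The change of the RA effect between times was tested in each type. The effect at 12 h minus that at 6 h had a member median of −0.23 in transgenic PML/RARA, −0.16 in PLZF/RARA, −0.11 in viral wild type and −0.29 in viral Pml null, beside −0.03, −0.11, −0.02 and −0.01 over all genes. Limma called 0 members in all 4 types, where 0.231%, 0.0251%, 0% and 0.0351% of all genes were called in either direction. An unadjusted p below 0.05 was found for 8, 1, 0 and 16 members in that order. Array weights called 1 member in transgenic PML/RARA and 6 in Pml null. Thus calls at 12 h without calls at 6 h do not show a difference between the times. Between untreated arrays of the other three types, 12 h minus 6 h, 0 members were called (0.00502%, 0% and 0% of all genes in PLZF/RARA, viral wild type and Pml null; 0, 0 and 1 members unadjusted), with medians of 0.05, 0.09 and 0.13.

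Cdc25b and Aurka rose in several leukaemia types. Cdc25b rose with a call in 5 of 8 comparisons, in both PML/RARA models, and its effect was above 0 in all 8, from 0.10 in PLZF/RARA at 12 h to 1.01. Aurka rose with a call in all 4 types at 6 h and in none at 12 h, where its effects were 0.12, 0.29, 0.04 and 0.01. Its change between the times was not called in any type. Fits that left out an array lost its 6 h call in 1 of 12 (transgenic PML/RARA) and 3 of 6 (PLZF/RARA). They lost it in 8 of 12 (viral wild type) and 2 of 12 (Pml null). In the fits that left out each array in turn, the Cdc25b rise in transgenic PML/RARA ran from 0.60 to 0.76 at 6 h and from 0.66 to 0.85 at 12 h.

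Other cell cycle genes were set beside the members. In transgenic PML/RARA at 12 h, 11.7% of all genes tested fell and 9.88% rose. Among 67 further mitosis genes measured, 41 fell and 0 rose in transgenic PML/RARA at 12 h (median −0.32), close to the members' median. They included the centromere protein Cenpm (−0.61 ± 0.08, adjusted p = 1.04e-06), the checkpoint subunit Zwilch (−0.80) and Oip5, a loader of Cenpa (−0.75). Genes of DNA replication and S phase fell in 30 of 31 (median −0.64), among them Pole, the leading-strand polymerase (−1.03 ± 0.12, adjusted p = 2.27e-08), Cdc45 (−0.84) and Mcm3 (−0.66), helicase components. At 6 h 14 of these 31 genes fell and 0 rose (45.2% falling, median −0.31). Among the 67 further mitosis genes 8 fell and 1 rose (11.9% falling), near the 8.54% of all genes that fell.

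Of 22 E2F, pocket protein and DREAM genes, 13 fell at 12 h in transgenic PML/RARA, including E2f8 (−0.85), Rbl1 (−0.73) and E2f1 (−0.59). In this comparison 11.7% of all genes tested fell and 9.88% rose. In the anaphase promoting complex 3 of 13 subunits fell, and among G1 cyclins and kinases Ccne2 (−0.79), Cdk4 (−0.44) and Cdk6 (−0.24) fell. The CDK inhibitors Cdkn1c (0.92 ± 0.12) and Cdkn2d (0.94 ± 0.16) rose. Wee1, the kinase that holds Cdk1 inactive and opposes Cdc25b, fell (−0.59). The genes named here are up to 3 called genes of each list with the largest test statistics, and do not stand for their lists. Counts in each direction are not given for the G1 cyclins and kinases or the CDK inhibitors. Nor are the numbers that rose among the DREAM list or the anaphase promoting complex.

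In Pml null leukaemias at 12 h, 9 of 67 further mitosis genes fell (median −0.30, with Bora −0.63, Zwilch −0.62 and Troap −0.41). Of 31 S phase genes 0 fell and 1, Dut, rose (median −0.24). Over all genes tested, 1.83% fell and 4.22% rose. In the difference of RA effects between PML/RARA and PLZF/RARA, 27 of 67 further mitosis genes (median −0.37) and 25 of 31 S phase genes (median −0.60) were called below 0, and 0 of either list above. Over all genes 4.07% were called below 0 and 3.35% above. Untreated PML/RARA leukaemias had higher levels than PLZF/RARA in 19 of the 67 and lower in 3 (median 0.18), and higher in 21 of the 31 (median 0.37). Over all genes 13.1% were higher and 12.2% lower.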

How the data were processed

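Total RNA of 72 bone marrow samples was hybridised to Affymetrix Mouse Gene 1.0 ST arrays. The authors deposited log2 values; RMA and the affy package are named in the submitters' processing notes, while versions, and whether batches were corrected before deposit, were not given in the sources used here. Precision is limited by the number of arrays. Of 23410 annotated probe sets, 21789 have 1 gene symbol, 1621 have several and were not used, and the probe set with the highest mean stood for each of 19938 genes. For each model of 36 arrays, limma 3.58.1 (R 4.3.3, data.table version 1.17.8) was fitted with 1 coefficient per group and the labelled batch, then eBayes. Tests were two-sided, and a gene was called at a Benjamini-Hochberg adjusted p below 0.05 over all genes. The models share no batch, and no test was run between them. Only lists of called genes and directions of effects were set side by side.

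Samples were grouped by the labels. The members and lists were chosen with earlier results of these data known. Named were the called members of each role with the largest test statistics, and members against the majority or with a called difference of RA effects. Up to 3 called genes of each other list were named as well. Array levels are given for the leading member of each role, for larger groups as lowest, median and highest. Motif and overlap counts are descriptions. Alternatives covered the batch term, quantile normalization, dim genes, probe set averaging, the eBayes prior, array weights, a 1.5-fold minimum, the arrays in the fit, single batches and times, and each array left out. The fit was tested on simulated data.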

Additional observations from a re-analysis of the deposited data

Results flagged for a closer look

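Arrays far from the rest of their group were looked for in 108 groups of values of the members given by array, and 3 were found; chance alone flags about 1 in 20 such groups. Ttk had a level of 9.38 on untreated 12 h replicate 2 of transgenic PML/RARA, where the nearest other array had 8.62. Espl1 had a level of 8.65 on RA 6 h replicate 3 of PLZF/RARA, where the nearest had 9.03. Espl1 had a level of 8.86 on untreated 6 h replicate 1 of the viral leukaemias labelled Pml null, where the nearest had 8.66.

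For 7 members the RA effect differed between transgenic PML/RARA and PLZF/RARA leukaemias by limma's test of the difference itself. These differences were −0.68 for Ndc80, −0.66 for Ttk, −0.52 for Spc25, −0.51 for Kif2c, −0.50 for Kif15, −0.43 for Kif11 and −0.42 for Top2a. The adjusted p ranged from 0.00885 for Spc25 to 0.0492 for Ttk.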

How the results depend on the processing

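Each of the 71 called member changes kept its direction in every alternative run that was not a left-out array (711 values, 0 reversed). Of these 71, the calls lost were 8 without the batch term, 1 with quantile normalization again, 0 with dim genes filtered, 2 with probe sets averaged, 3 with a trended robust prior, 2 with array weights and 58 with a 1.5-fold minimum. Fits on fewer arrays lost 11 of 51 calls with one leukaemia type in the fit, 8 of 21, 3 of 4, 9 of 13 and 6 of 10 within batches 1, 2, 3 and 4, 3 of 3 for the untreated viral difference at 6 h within batch 4, and 10 and 16 of 20 at 6 h or 12 h alone. Untreated arrays of both times lost 3 of 51. Without the 2 lowest RA arrays, a choice made after seeing the data, 7 of the 21 calls in transgenic PML/RARA at 12 h were lost.

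The counts of called members that moved by more than 1.5 times were as follows. Without the batch term, PLZF/RARA at 6 h had 0 and viral wild type at 12 h had 1. With quantile normalization again, the viral difference of RA effects had 2. With array weights, transgenic PML/RARA at 6 h had 9 (3 up, 6 down), PLZF/RARA at 6 h 0, Pml null at 6 h 11 (6 up, 5 down), the change between times 1 in transgenic PML/RARA and 6 in Pml null, the viral difference of RA effects 4 and the untreated viral difference 10 (5 up, 5 down). With a minimum of 1.5-fold, the RA effect had 1 and 3 in transgenic PML/RARA at 6 h and 12 h, 0 in PLZF/RARA at 6 h, 1 and 1 in viral wild type, and 1 and 2 in Pml null, the PML/RARA minus PLZF/RARA differences had 2 (RA effect) and 2 (untreated), and the untreated viral difference 0. Within single batches, transgenic PML/RARA at 6 h had 2 (batch 1) and 1 (batch 2), viral wild type at 6 h 1 (batch 3) and 3 (batch 4), Pml null at 6 h 1 (batch 3), the PML/RARA minus PLZF/RARA RA difference 2 (batch 1) and the untreated viral difference at 6 h 0 (batch 4). With untreated arrays of both times, transgenic PML/RARA at 12 h had 33, PLZF/RARA at 6 h 2, viral wild type at 12 h 4 and Pml null at 6 h 9. With one time only, the RA difference between fusions had 0 at 6 h and 0 at 12 h, the untreated difference between fusions 3 at 12 h and the untreated viral difference 1 at 12 h. The cause was not tested.

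Leaving out each array in turn gave 2 to 4 and 15 to 25 called members in transgenic PML/RARA at 6 h and 12 h, 0 to 2 and 0 to 0 in PLZF/RARA, 3 to 7 and 1 to 2 in viral wild type, and 1 to 6 and 1 to 12 in Pml null. The range was 0 to 0 for the change between times in all 4 types, 0 to 13 and 0 to 1 for the RA differences in the transgenic and viral models, and 8 to 13 and 2 to 3 for the untreated differences. No paired analysis was possible because the labels give every array the same replicate number, and the numbers used here only name arrays in accession order. Groups of 2 arrays limit the PLZF/RARA and the viral 12 h comparisons.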
